A study of Mus musculus with 6 samples.

Results

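Genes of synaptic vesicle fusion were followed in the trigeminal ganglion of mice. The members were the protein-coding genes whose symbols name a synaptotagmin (Syt), syntaxin (Stx), VAMP, syntaxin-binding protein (Stxbp), SNAP, synapsin (Syn1 to Syn3), complexin (Cplx), RIM (Rims), Munc13 (Unc13a to Unc13d) or SV2 protein (Sv2a to Sv2c). The rule reads the symbols and no value, and 64 of the 17524 genes in the table, of which 15116 were protein-coding, were members. All 64 passed the filter on low values, and the member with the fewest reads had 72 reads over all libraries. The study sequenced messenger RNA of the ganglion from wild-type (WT) mice, with 3 libraries from mice given vehicle and 3 from mice given NTG. NTG is written only as this abbreviation in the sample labels, and the study's title places the work in migraine. No source used here gives dose, schedule, age or sex. None says either that the libraries of a group came from different mice, so the p-values cover only variation among these libraries, which may be technical.

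Neurotransmitter and peptide release ends with fusion of a vesicle with the plasma membrane. A vesicle SNARE of the VAMP family zippers with syntaxin and SNAP-25 on the plasma membrane, SM and Munc13 proteins template and prime that assembly, complexins and synaptotagmins hold it and then couple it to calcium, and RIM proteins tether vesicles at release sites. In trigeminal neurons the same machinery releases glutamate and calcitonin gene-related peptide (CGRP), and botulinum toxins, one of which is used against chronic migraine, cleave its SNAREs.

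Every library held between 18813027 and 23774244 recovered reads, and values are given as normalised reads, that is reads divided by the library's size factor. The members took 1.10% of all reads. Markers of neurons were abundant, and none of the 18 was at 0. Their summed level, as deposited, ranged from 489100.2 to 508831 normalised reads in vehicle and from 470115 to 484818 in NTG, so the groups did not overlap. As deposited 4 of these markers rose and 8 fell, with a median log2 fold change of -0.10. After the GC correction described below 4 rose and 5 fell, and the median was -0.01. In a bulk sample, fewer cells of a type and less RNA per cell cannot be told apart. Beside all results below, 1 property of the libraries also moved with the groups: the slope over transcript GC content. It was fitted to each gene's log2 deviation from its own mean over the 6 libraries, so it compares the libraries with each other. Per 10 percentage points this slope was 0.11, 0.19 and 0.17 in vehicle and -0.22, -0.17 and -0.08 in NTG.

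The levels of the members spanned a ratio of 3158 from the highest to the lowest. Per kilobase of median transcript length and averaged over the 6 libraries, Cplx1, a complexin, was highest at 21470.1 normalised reads per kilobase. The SNARE Snap25 followed at 14202, the vesicle SNARE Vamp1 at 8728, the synaptotagmin Syt11 at 6356 and the SNAP-25 relative Snap47 at 5183. Of these 5, all but Snap47, whose median annotated transcript is short, were also among the 5 highest per kilobase of the longest transcript. The median member stood at 585 and the lowest, Syt10, at 6.80. Within the fast calcium sensors, Syt2 at 3182 was above Syt9 at 771 and Syt1 at 640.1. Among the SV2 glycoproteins Sv2b at 1314 and Sv2c at 1248 stood above Sv2a at 341, and the syntaxin Stx1a stood at 480.4.

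**Figure D1:**
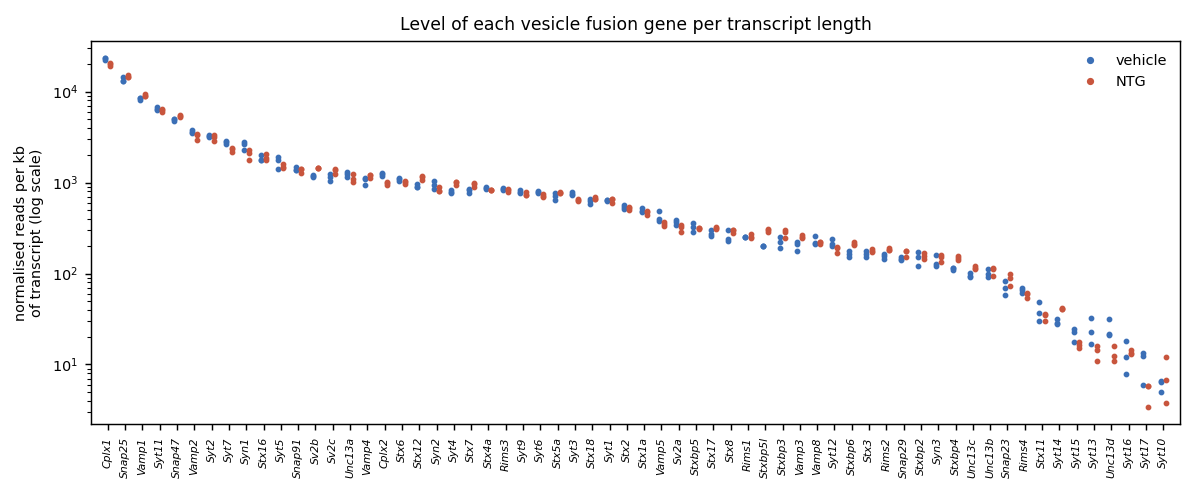
Normalised reads per kilobase of median transcript length (log scale) of 62 members, ordered by mean level, with 1 point per library in vehicle (blue) and NTG (red). Cplx1 stands at the left at a mean of 21470.1 and Syt10 at the right at 6.80, and for most genes the blue and red points lie close together compared with the distance between genes.

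Of the 64 members, 23 (35.9%) passed an adjusted p of 0.05 in the limma-trend test, against 25.8% of all genes tested. In NTG 14 members rose (21.9%, against 12.3% of all genes) and 9 fell (14.1%, against 13.5%). The 2 groups of libraries did not overlap for 33 members (51.6%, against 39.7% of all genes), 17 higher and 16 lower in NTG. The changes were small: the log2 fold changes of members that passed ran from 0.13 to 0.90 in size, and the median size over all members was 0.18, against 0.21 over all genes. The median signed log2 fold change was -0.01 for the members and 0.00 for all genes. The members' summed reads were 226034, 228601 and 228950.1 in vehicle and 216045, 228537 and 226725 in NTG, which overlapped. Without NTG replicate 2, 6 members rose and 5 fell, and 2946 genes were called in place of 4512. Without vehicle replicate 2, 5 fell.

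**Figure D2:**
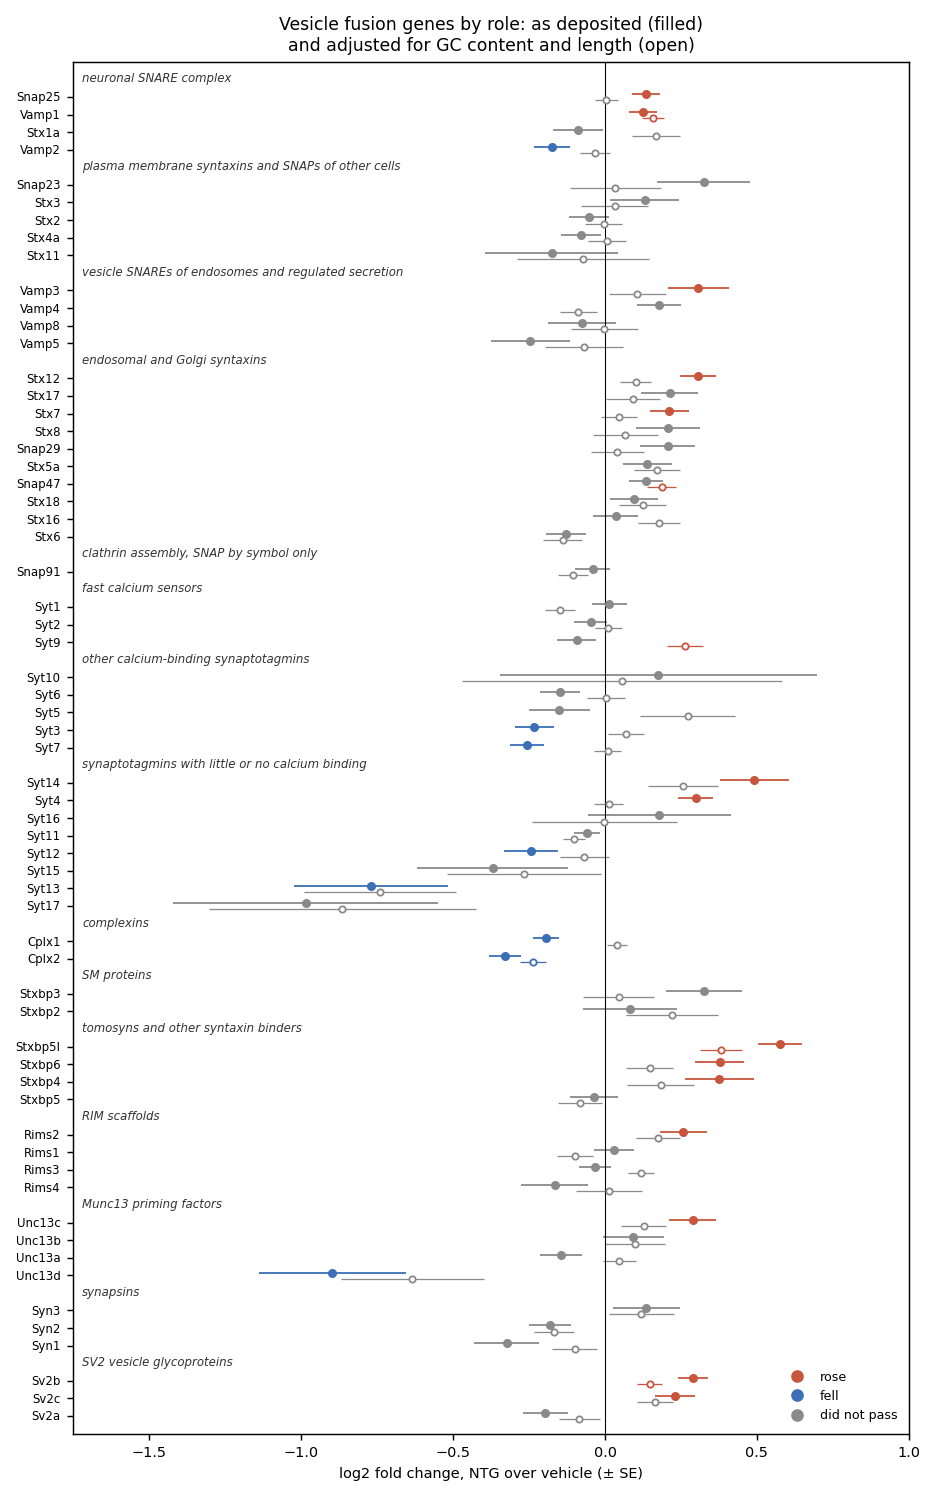
Log2 fold change (NTG over vehicle, ± SE) of 62 members, grouped by role, from the values as deposited (filled) and after correction for transcript GC content and length within each library (open). Red marks genes that rose, blue genes that fell and grey genes that did not pass. Of the filled points 22 are coloured, and of the open points 6.

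Direction followed the base composition of the transcripts. The median GC content was 45.3% in members that rose (range 40.7% to 52.2%), 56.1% in those that fell (52.1% to 60.3%) and 52.3% in the 41 that did not pass. Among the 27 members under 50% GC, 13 rose and 0 fell, while 28.8% of all protein-coding genes under 50% rose and 2.27% fell. Among the 37 members at 50% or more, 1 rose and 9 fell, while of all protein-coding genes there 2.46% rose and 23.3% fell. Across genes, which are not independent replicates and share their libraries, Spearman's rho between GC content and log2 fold change was -0.83 over the 64 members and -0.63 over 14932 protein-coding genes.

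The test was therefore also run on GC-corrected values, from which a smooth curve fitted in each library to the GC content and length of transcripts had been subtracted. On these, 5 members rose (7.81%, against 4.97% of all genes with a GC value) and 1 fell (1.56%, against 5.41%). Stxbp5l, Sv2b and Vamp1 rose and Cplx2 fell both before and after the correction. In all 19 members lost their call, and Snap47 and Syt9 were called only after it. Of the GC-corrected rises 2 were left without NTG replicate 2 and 3 without NTG replicate 3, and 2 members fell without vehicle replicate 1 or vehicle replicate 3. The rank correlation with GC content was then -0.11 over the members. Where the difference in GC slope between the groups came from was not tested.

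**Figure D3:**
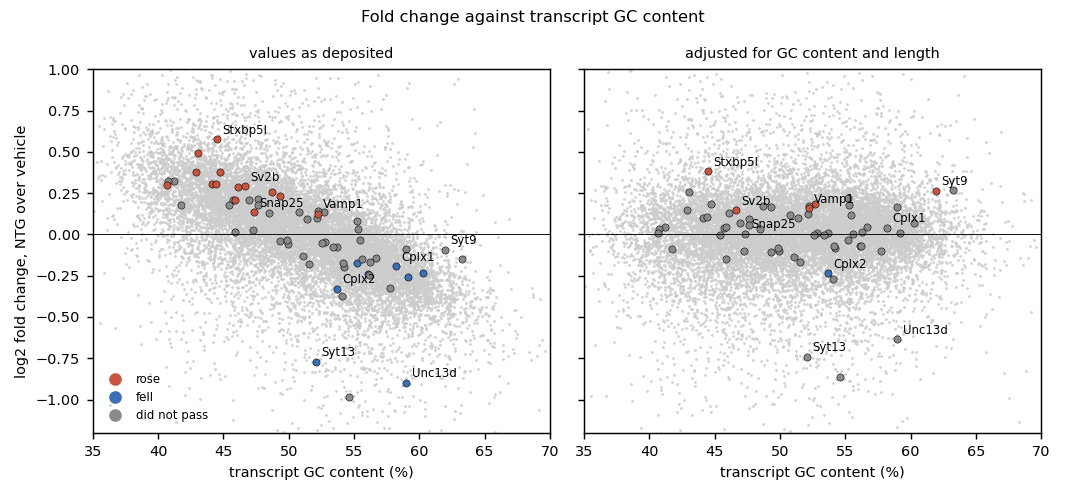
Log2 fold change (NTG over vehicle) against transcript GC content (%), from the values as deposited (left) and GC-corrected values (right). Grey dots are the protein-coding genes with a GC value, and ringed points 62 members (red rose, blue fell, grey did not pass). Points beyond the axes are not drawn. On the left the members run down from about 40.7% to 63.3% GC, with 13 of the 14 that rose under 50%, and on the right rho is -0.11 over the members.

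Genes of the neuronal SNARE complex moved in different directions. Of its 5 genes, 2 rose (Snap25 and Vamp1), 1 fell (Vamp2) and 2 did not pass. Snap25 (chr2:136713439-136782428), which supplies 2 of the helices of the complex, had normalised reads of 22572, 20488 and 20558 in vehicle and 22965, 23883 and 22890.5 in NTG. All 3 NTG libraries lay above the 3 vehicle libraries, though vehicle replicate 1 came close to them. Snap25 rose from 21206 ± 1183 to 23246 ± 552 (SD, n = 3 per group). Its log2 fold change was 0.13 ± 0.05 (SE), with an adjusted p of 0.0385. The call was lost without vehicle replicate 2, vehicle replicate 3 or NTG replicate 2, with adjusted p up to 0.178, and on GC-corrected values the fold change was 0.00 (adjusted p = 0.961).

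The vesicle SNAREs Vamp1 and Vamp2 (synaptobrevins) went opposite ways. Vamp1 (chr6:125215581-125222306) read 17724, 17782 and 16737 in vehicle and 18474, 19610.1 and 18908 in NTG, with no overlap. It rose by 0.13 ± 0.05 on the log2 scale (adjusted p = 0.0454), and by 0.16 on GC-corrected values (adjusted p = 0.00655). As deposited, the Vamp1 call was lost without vehicle replicate 2 or 3 or NTG replicate 2 or 3 (adjusted p up to 0.222). On GC-corrected values it was lost only without NTG replicate 2 (adjusted p = 0.0613). Vamp2 (chr11:69088528-69092381) read 5858, 5938 and 6356 in vehicle and 4923, 5542 and 5637 in NTG, so that every NTG library was below every vehicle library. Its log2 fold change was -0.17 ± 0.06 (adjusted p = 0.0313), and -0.03 after GC correction (adjusted p = 0.739). Leaving out vehicle replicate 2 or 3 or NTG replicate 1 or 2 ended the Vamp2 call, with adjusted p up to 0.187.

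Stx1a, a syntaxin of the presynaptic plasma membrane, did not pass. It read 667, 638 and 709 in vehicle and 641, 597 and 655 in NTG, which overlapped, with a log2 fold change of -0.09 ± 0.08 (adjusted p = 0.470). After GC correction the Stx1a value was 0.17, of opposite sign (adjusted p = 0.204).

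**Figure D4:**
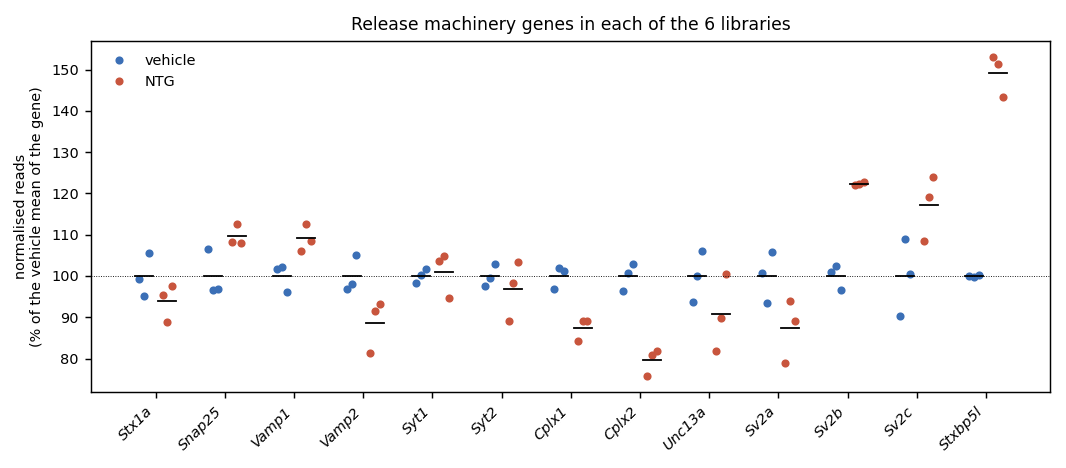
Normalised reads of 13 genes of the release machinery in each library, as deposited, in percent of the gene's vehicle mean; blue points are the 3 vehicle libraries, red points the 3 NTG libraries and black bars the group means. Stxbp5l, Sv2b and Sv2c stand above 100% in NTG and Cplx1, Cplx2 and Vamp2 below it, while the groups of Syt1 and Syt2 overlap.

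Both complexins, the small proteins that bind the assembled SNARE complex, fell as deposited, but the sign of Cplx1 turned after GC correction. Cplx2 (chr13:54301964-54383923) read 5879.9, 6138 and 6277 in vehicle and 4624, 4938 and 4997 in NTG. The highest NTG library was well below the lowest vehicle library. Cplx2 fell from 6098 ± 201 to 4853 ± 201 (SD, n = 3 per group), with a log2 fold change of -0.33 ± 0.05 (adjusted p = 0.000142). It kept its call without any 1 of the 6 libraries (adjusted p at most 0.00238), and on GC-corrected values it fell by 0.24 (adjusted p = 0.000793), again without any 1 library (at most 0.00617). Cplx1 (chr5:108518554-108550027) read 29099, 30610.0 and 30399 in vehicle and 25306, 26738 and 26797 in NTG, also without overlap. Its log2 fold change was -0.19 ± 0.04 (adjusted p = 0.00221) and it kept its call without any 1 library (at most 0.0227). On GC-corrected values Cplx1 stood at 0.04 (adjusted p = 0.531).

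The fast calcium sensors did not pass as deposited. Syt1, the classical sensor of synchronous release, read 2990.1, 3049 and 3097 in vehicle and 3156, 3190.0 and 2886 in NTG, and the groups overlapped. Its log2 fold change was 0.01 ± 0.06 (adjusted p = 0.891) as deposited and -0.15 on GC-corrected values (adjusted p = 0.0583). Syt2, its close relative at fast synapses, read 10678, 10878 and 11274 in vehicle and 9744, 10755 and 11321 in NTG, with NTG replicate 1 lowest and NTG replicate 3 highest of all 6. For Syt2 the log2 fold change was -0.05 ± 0.05 (adjusted p = 0.562), and 0.01 after GC correction. Syt9, the third fast sensor and at a GC content of 62.0% one of the most GC-rich members, stood at -0.09 as deposited (adjusted p = 0.315). On GC-corrected values Syt9 rose by 0.26 (adjusted p = 0.00409), and did so without any 1 library (adjusted p at most 0.0340).

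Of the other 5 calcium-binding synaptotagmins, 2 fell and none rose. Syt7, the high-affinity sensor of slow and asynchronous release, read 4546, 4847 and 4789 in vehicle and 3739.9, 4009 and 4139.9 in NTG, with all NTG libraries below vehicle. For Syt7 the log2 fold change was -0.26 ± 0.06 (adjusted p = 0.00202), and the call was kept without any 1 library (at most 0.0179). Syt3, another high-affinity sensor, read 1543, 1666 and 1553 in vehicle and 1321, 1343 and 1388 in NTG. It did not overlap either, at -0.23 ± 0.06 (adjusted p = 0.0110), and lost its call without vehicle replicate 2 or NTG replicate 2 (up to 0.0605). On GC-corrected values Syt7 stood at 0.01 (adjusted p = 0.938) and Syt3 at 0.07 (adjusted p = 0.541), neither called. The remaining sensors, Syt5 (-0.15), Syt6 (-0.15) and Syt10 (0.18), did not pass.

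Among the 8 synaptotagmins that bind little or no calcium, 2 rose and 2 fell. Syt4, a synaptotagmin of dense-core vesicles, read 3252, 3062 and 2993 in vehicle and 3915, 3911 and 3619.7 in NTG, all NTG libraries being higher. Its log2 fold change was 0.30 ± 0.06 (adjusted p = 0.000731), kept without any 1 library (at most 0.00819), and 0.01 after GC correction (adjusted p = 0.921). At 40.7% Syt4 had the lowest GC content of the members. Syt14 read 251, 217 and 227 in vehicle and 327, 324 and 325 in NTG, the NTG libraries lying close together and above all vehicle libraries. Syt14 rose by 0.49 ± 0.11 (adjusted p = 0.00326), without any 1 library at most 0.0197, and stood at 0.26 after correction (adjusted p = 0.171). Syt12 fell by 0.24 (adjusted p = 0.0492), lost without vehicle replicate 2 or 3 or NTG replicate 1 or 2 (up to 0.238), and stood at -0.07 after correction (adjusted p = 0.676). Syt13, a synaptotagmin of endocrine tissue as well as neurons, fell by 0.77 (adjusted p = 0.0289) from few reads: 123.1, 86.5 and 63.9 in vehicle and 40.9, 60.8 and 53.8 in NTG. The Syt13 call was lost without vehicle replicate 1 or 2 or NTG replicate 1 or 3 (up to 0.148), and after GC correction it stood at -0.74 (adjusted p = 0.0619). Syt11, the most abundant of the group, stood at -0.06, with Syt15 at -0.37, Syt16 at 0.18 and Syt17 at -0.99, none of which passed.

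Of the SM proteins, which clasp syntaxin, Stxbp2 (0.08) and Stxbp3 (0.33), both known from secretion outside the synapse, did not pass.

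The tomosyn and amisyn group, syntaxin binders of which tomosyns and amisyn compete with VAMP for the SNARE complex, held the member with the smallest p. Stxbp5l (tomosyn-2, chr16:37107075-37385015) read 712, 709 and 714 in vehicle and 1089.5, 1076 and 1019.6 in NTG. The vehicle libraries lay close together, and the lowest NTG library was far above them. Stxbp5l rose from 712 ± 2.33 to 1062 ± 37.1 (SD, n = 3 per group), with a log2 fold change of 0.58 ± 0.07 (adjusted p = 1.50e-05). It rose without any 1 library (at most 0.000375). On GC-corrected values it rose by 0.38 (adjusted p = 0.000631), again without any 1 library (at most 0.00794). Stxbp6 (amisyn) read 685, 632 and 747 in vehicle and 928, 861 and 889.5 in NTG and rose by 0.38 ± 0.08 (adjusted p = 0.00173). The Stxbp6 groups did not overlap and its call was kept without any 1 library (at most 0.0150), but after GC correction it stood at 0.15 (adjusted p = 0.258). Stxbp4 (Synip), a syntaxin-4 binder of insulin-responsive cells, rose by 0.38 (adjusted p = 0.0171), a call lost without NTG replicate 1 or 2 (up to 0.0949), and stood at 0.18 after GC correction (adjusted p = 0.339). Stxbp5 (tomosyn-1) stood at -0.04 (adjusted p = 0.781).

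Munc13 proteins, which open syntaxin for assembly, moved in both directions. Unc13a, the main neuronal priming factor, read 3707, 3958 and 4195 in vehicle and 3234, 3552 and 3968 in NTG, and the groups overlapped. For Unc13a the log2 fold change was -0.14 ± 0.07 (adjusted p = 0.135), and 0.05 after GC correction. Unc13c read 783, 724 and 704 in vehicle and 889, 945 and 865 in NTG, with no overlap, and rose by 0.29 ± 0.08 (adjusted p = 0.00885), a call lost without NTG replicate 2 (0.0698). Unc13d (Munc13-4), known for granule release in blood cells, was another gene of few reads: 76.3, 115 and 78.2 in vehicle and 45.05, 39.5 and 58.1 in NTG. Unc13d fell without overlap, at -0.90 ± 0.24 (adjusted p = 0.00890), and the call was lost without vehicle replicate 2 or NTG replicate 2 (up to 0.0635). On GC-corrected values Unc13c stood at 0.13 (adjusted p = 0.328) and Unc13d at -0.63 (adjusted p = 0.0914), neither called. Unc13b stood at 0.09. Beside Unc13d, the summed level of 10 macrophage markers ranged from 3376 to 3572 in vehicle and from 2748 to 2944 in NTG. Of these markers 3 fell, 0 rose and none was at 0. On GC-corrected values 1 of them fell and 0 rose. The part of these markers in the Unc13d result was not tested.

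Of the RIM genes, Rims2 rose by 0.26 (adjusted p = 0.0182), from 721, 759.6 and 676 in vehicle and 894, 849 and 836 in NTG. Its groups did not overlap. The call was lost without vehicle replicate 3 or NTG replicate 1 or 2 (up to 0.0870), and after GC correction it stood at 0.17 (adjusted p = 0.144). Rims1 (0.03), Rims3 (-0.03) and Rims4 (-0.17) did not pass.

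Among SNAREs outside the synapse the called members rose. Stx12, a syntaxin of recycling endosomes, read 2651, 2596 and 2809 in vehicle and 3373, 3446 and 3144 in NTG. It rose without overlap by 0.31 ± 0.06 (adjusted p = 0.000700), kept without any 1 library (at most 0.00919). Stx7, of late endosomes, rose by 0.21 (adjusted p = 0.0186), lost without vehicle replicate 2 or NTG replicate 2 (up to 0.125). Vamp3 (cellubrevin), the vesicle SNARE of recycling endosomes, rose by 0.31 (adjusted p = 0.0266), lost without vehicle replicate 2 or NTG replicate 1 or 2 (up to 0.138). None of the 3 was called on GC-corrected values, where Stx12 stood at 0.10 (adjusted p = 0.241), Stx7 at 0.05 and Vamp3 at 0.11. Snap47, a SNAP-25 relative of intracellular membranes, stood at 0.13 as deposited (adjusted p = 0.0792) and rose by 0.19 after correction (adjusted p = 0.0131). The Snap47 call was lost without NTG replicate 2 or 3 (up to 0.0738).

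The other 15 SNAREs of this kind did not pass. The endosomal and Golgi members were Snap29 (0.21) and Stx17 (0.21), which act in autophagosome fusion, Stx8 (0.21) of late endosomes, Stx5a (0.14) and Stx18 (0.10) of the early secretory pathway, and Stx6 (-0.13) and Stx16 (0.04) of the trans-Golgi network. The vesicle SNAREs Vamp4 (0.18), Vamp5 (-0.25) and Vamp8 (-0.08) did not pass either. At the plasma membrane of other cells the values were -0.05 for Stx2, 0.13 for Stx3, -0.08 for Stx4a, -0.18 for Stx11 and 0.32 for Snap23, the widely expressed relative of Snap25. Snap91, which the symbol rule admits although it encodes the clathrin assembly protein AP180 and no SNARE, stood at -0.04.

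Of the proteins that ride on the vesicle, the SV2 glycoproteins Sv2b and Sv2c rose as deposited and Sv2a did not pass. Sv2b (chr7:75114894-75309262) read 6334, 6428 and 6054 in vehicle and 7649, 7666 and 7694 in NTG. The NTG libraries lay close together and above all vehicle libraries. Sv2b rose from 6272 ± 194 to 7669 ± 22.8 (SD, n = 3 per group), with a log2 fold change of 0.29 ± 0.05 (adjusted p = 0.000217), kept without any 1 library (at most 0.00234). On GC-corrected values it rose by 0.15 (adjusted p = 0.0250), but lost that call without vehicle replicate 2 or 3 or NTG replicate 2 or 3 (up to 0.111). Sv2c read 5870.1, 7083 and 6530.4 in vehicle and 7048, 7729 and 8050.1 in NTG. It rose by 0.23 ± 0.07 (adjusted p = 0.0134) although vehicle replicate 2 was above NTG replicate 1, the 1 called member whose groups overlapped. The Sv2c call was lost without vehicle replicate 1 or NTG replicate 2 or 3 (up to 0.0646), and after GC correction Sv2c stood at 0.16 (adjusted p = 0.0881). Sv2a read 1589, 1477 and 1670.1 in vehicle and 1247, 1485 and 1407 in NTG, with vehicle replicate 2 below NTG replicate 2, and stood at -0.20 ± 0.07 (adjusted p = 0.0550). On GC-corrected values Sv2a stood at -0.08 (adjusted p = 0.497).

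Synapsins, which tether vesicles to each other and to actin, did not pass. Syn1 stood at -0.32 (adjusted p = 0.0591) with no overlap between groups, Syn2 at -0.18 (adjusted p = 0.0633) and Syn3 at 0.14 (adjusted p = 0.403). Syn3 lies opposite Timp3, a gene at 16.5 times its level that rose by 0.25, and Snap29 and Stx18 lie opposite Pi4ka and Nsg1 at 7.82 and 4.04 times theirs. No source used here gives the strand setting of the counting, so reads from such partners may not be told apart.

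The balance between close relatives was compared in 10 pairs, within each library, as a ratio per kilobase of median transcript length. In 6 pairs the 2 groups did not overlap, 5 higher and 1 lower in NTG. The tomosyn ratio Stxbp5l/Stxbp5 went from 0.625 to 0.956, a log2 difference of 0.61. Per kilobase of the longest transcript the same ratio went from 1.11 to 1.70, so which tomosyn was higher depended on the length used, while the difference did not. Sv2b/Sv2a went from 3.25 to 4.55 (log2 difference 0.49) and Vamp1/Vamp2 from 2.29 to 2.82 (0.30). Rims2/Rims1 differed by 0.23 and Syn2/Syn1 by 0.14. Cplx2/Cplx1 went from 0.0540 to 0.0491, a log2 difference of -0.14, so that Cplx2 fell more than Cplx1.

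Each of these 6 pairs had an exact two-sided permutation p of 0.1, the smallest that 3 against 3 libraries can give, and 0.167 after Benjamini-Hochberg adjustment over the 10 pairs, so none could pass. The ratios Snap23/Snap25 (0.19), Syt2/Syt1 (-0.06) and Unc13b/Unc13a (0.24) overlapped. In all 6 pairs the relative that gained in NTG had the coding sequence with the lower GC content. It was 52.6% against 57.5% in Vamp1/Vamp2, 50% against 55.7% in Sv2b/Sv2a and 44.5% against 49.0% in Stxbp5l/Stxbp5. In Rims2/Rims1 it was 49.1% against 51.5%, in Syn2/Syn1 58.6% against 60.5%, and Cplx1 had 57.7% against 60.9% in Cplx2. By GC content of the whole transcript, which the GC correction used, the order was reversed in 2 of these pairs. Rims2 stood at 48.7% against 47.3% in Rims1, and Cplx1 at 58.2% against 53.7% in Cplx2. The ratios are from values as deposited. Of these pairs only Syn2 (-0.17) and Syn1 (-0.10) swapped the order of their log2 fold changes after GC correction. The part of GC content in the ratios was not tested.

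**Figure D5:**
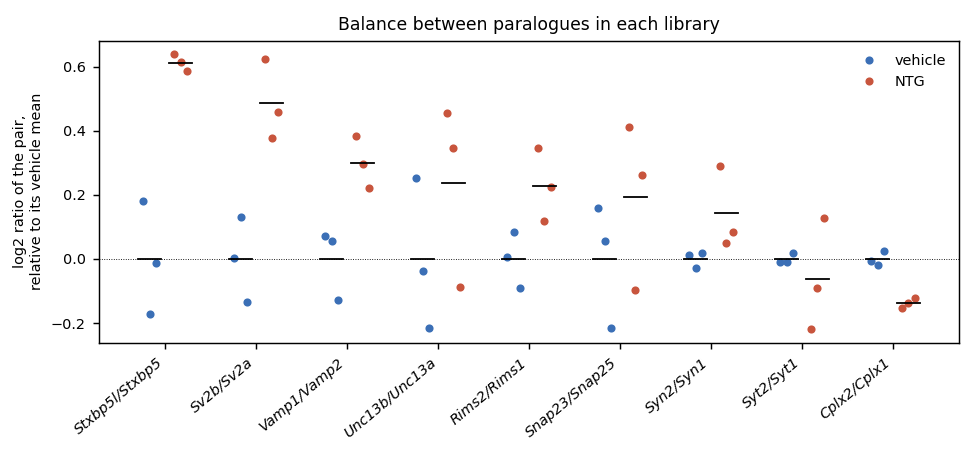
Log2 ratio of 9 pairs of related genes in each library, relative to the vehicle mean of the pair; blue points are vehicle libraries, red points NTG libraries and black bars group means. Stxbp5l/Stxbp5 lies highest in NTG at 0.61, Cplx2/Cplx1 lowest at -0.14, and Unc13b/Unc13a, Snap23/Snap25 and Syt2/Syt1 overlap.

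Coding identity within the 10 pairs ran from 67.9% (Stxbp5l/Stxbp5) to 79.6% (Cplx2/Cplx1), and the longest run of identical bases from 13 to 32. The most alike windows of 60 coding bases are shown for Vamp1/Vamp2 and Cplx2/Cplx1, with the differing bases in capitals. Both pairs are among the 6 whose ratios did not overlap between the groups, none of which could pass the permutation test. The windows were read from the GRCm38 genome with the GENCODE annotation and cross from exon 2 to exon 3. For Vamp1 (bases 127 to 186 of the coding sequence, chr6:125218698-125218967, + strand) and Vamp2 (bases 121 to 180, chr11:69089224-69089787, + strand) the windows differ at 4 positions, within the SNARE motif that both share. For Cplx2 (bases 1 to 60, chr13:54378669-54378840, + strand) and Cplx1 (bases 1 to 60, chr5:108525539-108548536, - strand) they differ at 5.
Vamp1: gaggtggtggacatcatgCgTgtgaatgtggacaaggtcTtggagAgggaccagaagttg
Vamp2: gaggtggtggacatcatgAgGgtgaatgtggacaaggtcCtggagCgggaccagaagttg
Cplx2: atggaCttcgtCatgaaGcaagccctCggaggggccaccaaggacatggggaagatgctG
Cplx1: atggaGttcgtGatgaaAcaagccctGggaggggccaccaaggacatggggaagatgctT

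The promoters of the 4 members called in the same direction before and after GC correction are shown because the study's title names KLF4, a zinc-finger factor whose family binds CACCC boxes. Each is the 250 bases before the RefSeq transcription start (GRCm38.p6), with every CACCC or its complement GGGTG in capitals. Stxbp5l (chr16:37384959-37385208, - strand) holds 1 box, Sv2b (chr7:75309263-75309512, - strand) 2, Cplx2 (chr13:54302306-54302555, + strand) 2 and Vamp1 (chr6:125215331-125215580, + strand) 0.
Stxbp5l: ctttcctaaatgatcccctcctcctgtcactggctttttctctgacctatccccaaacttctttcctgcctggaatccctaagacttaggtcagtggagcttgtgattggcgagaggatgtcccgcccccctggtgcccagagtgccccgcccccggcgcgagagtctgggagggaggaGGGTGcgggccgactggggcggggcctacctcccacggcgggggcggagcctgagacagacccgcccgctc
Sv2b: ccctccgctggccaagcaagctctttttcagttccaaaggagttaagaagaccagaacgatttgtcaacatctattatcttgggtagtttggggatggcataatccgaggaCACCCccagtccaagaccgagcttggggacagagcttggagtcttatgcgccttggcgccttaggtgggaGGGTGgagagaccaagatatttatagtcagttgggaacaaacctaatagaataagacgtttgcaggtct
Cplx2: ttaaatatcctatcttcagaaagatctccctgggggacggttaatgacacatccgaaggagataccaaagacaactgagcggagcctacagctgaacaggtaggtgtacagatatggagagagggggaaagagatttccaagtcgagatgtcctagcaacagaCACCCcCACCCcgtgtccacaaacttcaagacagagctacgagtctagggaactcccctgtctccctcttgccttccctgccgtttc
Vamp1: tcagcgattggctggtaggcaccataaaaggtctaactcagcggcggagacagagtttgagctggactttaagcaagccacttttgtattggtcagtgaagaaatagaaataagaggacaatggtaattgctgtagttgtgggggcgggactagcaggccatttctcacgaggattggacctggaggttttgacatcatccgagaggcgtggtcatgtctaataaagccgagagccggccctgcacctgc
Across windows of 300 bases (250 before and 50 after the start), 49 of the 64 members had a RefSeq promoter. A CACCC box on either strand lay in 71.4% of them, against 56.7% of all 27025 promoters, in 8 of 10 members that rose and 2 of 3 that fell. The GC box GGGCGG, which can overlap a CACCC box, lay in 79.6% against 35.9%, and the median promoter GC content was 64.3% against 52.7%. The E-box CACGTG lay in 12.2% against 7.24% and TGACG, the core of the cyclic AMP response element, in 26.5% against 21.0%. These are letter matches in windows richer in GC than the average promoter.

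The targets and receptors of botulinum toxins are 11 of the members. Of them 5 rose (Snap25, Vamp1, Vamp3, Sv2b and Sv2c; 45.5%, against 12.3% of all genes), 1 fell (Vamp2; 9.09%, against 13.5%) and 5 did not pass, among them Sv2a, Syt1 and Syt2. On GC-corrected values 2 rose (Vamp1 and Sv2b) and 0 fell, where 4.97% of all genes rose and 5.41% fell. Their median log2 fold change was 0.01, against 0.00 over all genes.

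In the rest of the vesicle cycle, 25 of 91 genes tested rose (27.5%, against 12.3% of all genes) and 13 fell (14.3%, against 13.5%). On GC-corrected values 16 rose and 0 fell, against 4.97% and 5.41% of all genes. As deposited, 16 rose without NTG replicate 2, and 4, 6 and 4 fell without vehicle replicate 2, vehicle replicate 3 and NTG replicate 1. All 4 genes of SNARE disassembly, the step that frees SNAREs for reuse, were tested, and 2 rose: the SNAP adaptors Napb by 0.33 (adjusted p = 9.17e-05) and Napg by 0.19 (adjusted p = 0.0145). Both also rose on GC-corrected values, Napb by 0.13 (adjusted p = 0.0491) and Napg by 0.23 (adjusted p = 0.00415). Of 18 genes of vesicle endocytosis 6 rose and 4 fell. The 3 with the smallest p were the clathrin heavy chain Cltc (0.36, and 0.14 after correction), the dynamin Dnm3 (0.24, 0.15) and the phosphatase Synj1 (0.20, 0.09), which lost its call after correction (adjusted p = 0.229). Those that fell were the neuronal dynamin Dnm1 (-0.30), the clathrin adaptor subunits Ap2s1 (-0.23) and Ap2a1 (-0.20) and the clathrin light chain Cltb (-0.14), none of them called after correction (-0.07, -0.01, 0.08 and 0.02). After correction 5 of the 18 rose and 0 fell.

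Genes of dense-core vesicles, which carry peptides such as CGRP, gave 5 rises and 0 falls among 13 (38.5% and 0%, against 12.3% and 13.5% of all genes). By smallest p the first 3 were Sytl2, a Rab27 effector (0.30), and the granins and granin partners Scg5 (0.35) and Scg3 (0.24). Of the 5, Scg5 alone kept its call after correction (0.24, adjusted p = 0.0226), while Sytl2 stood at 0.13 (adjusted p = 0.101) and Scg3 at 0.10 (adjusted p = 0.141). The granins Chga and Chgb were called only after it, which made 3 rises among the 13, where 4.97% of all genes rose. In the Rab3 and Rab27 cycle 3 of 11 rose and 2 fell. Rab3c rose by 0.36 and Rab3gap1 by 0.25, while the Rab3 effector Rph3a (rabphilin) fell by 0.23. After correction Rab3gap1 stood at 0.15 (adjusted p = 0.110) and Rph3a at -0.07 (adjusted p = 0.345). Of 9 transmitter and proton transporters 3 rose and 1 fell: Slc17a6 (VGLUT2) by 0.26, and the proton pump subunits Atp6v1a by 0.25 and Atp6v0c by 0.20, rose, while Slc17a7 (VGLUT1) fell by 0.21. Both pump subunits and Rab3c also rose after correction, by 0.17, 0.42 and 0.16, while Slc17a6 stood at 0.03 and Slc17a7 at 0.04.

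The membrane proteins of the vesicle gave 2 rises and 3 falls among 8: Synpr by 0.28 and Scamp1 by 0.22 rose, and Syngr1 (synaptogyrin) fell by 0.21. None of these 3 was called after correction, where Synpr stood at -0.0015, Scamp1 at 0.08 and Syngr1 at 0.03. In the active zone scaffold 2 of 9 rose, the liprin Ppfia2 by 0.37 and Erc2 by 0.31, and the liprin Ppfia3 fell by 0.23. Their corrected values were 0.12, 0.16 and 0.07, none of them called, and Ppfia3 had changed sign. Of 7 chaperones and regulators 1 rose and 2 fell, with the synuclein Sncb at -0.42 and Prrt2, a release regulator, at -0.21. The 1 that rose was Napepld (0.43), a lipid-metabolising enzyme that the list holds although it is no vesicle chaperone. These calls too were lost after correction, at -0.12 for Sncb, -0.02 for Prrt2 and 0.26 for Napepld. Of 12 further SNAREs of the secretory pathway 1 rose as deposited, Vti1a by 0.30, and 0.24 after correction (adjusted p = 0.0157).

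Over the 6 libraries, the genes whose log2 level was most like that of Snap25 were Gm9199 (Pearson's r = 0.996), Pdik1l (0.995), Riox2 (0.995), Gm14057 (0.995) and 2210418O10Rik (0.994), 2 of them transcribed pseudogenes. With 6 points in 2 groups and all genes searched, these values are a description. Other cell types in the tissue were followed by their markers. None was at 0 in all libraries, but the muscle markers Tnnt3 and Tnnc2 were each at 0 in 1 NTG library. Of the lists, 4 of 9 pituitary, 1 of 14 skeletal muscle and 1 of 9 central glia markers were not analysed here. The summed level was 121247 to 125557 in vehicle and 113697 to 118594 in NTG for 9 satellite glia markers, of which 2 rose and 2 fell. It was 313777 to 338629 and 294043 to 316442 for 10 Schwann cell markers (1 rose and 5 fell), and 3341 to 4096 and 3655 to 3752 for 8 endothelial markers (1 rose and 1 fell). The 10 macrophage markers summed to 3376 to 3572 in vehicle and 2748 to 2944 in NTG, without overlap (0 rose and 3 fell). The 5 pituitary markers summed to 1577 to 3917 and 334 to 2383 (1 fell), and 8 central glia markers to 8683 to 11915 and 8373 to 9428 (2 fell). On GC-corrected values 1 macrophage, 1 satellite glia and 1 pituitary marker fell, and none of the Schwann cell, endothelial or central glia markers. On the same values 2 satellite glia markers and 1 Schwann cell marker rose, and no macrophage, endothelial, pituitary or central glia marker. The 13 skeletal muscle markers summed to 1498 to 1677 in vehicle and 1339.9 to 1493 in NTG (0 rose and 7 fell, and 0 and 5 after correction). Most of that sum, 84.4%, came from Pvalb, which sensory neurons also express and which stood at 0.04 on the log2 scale. Without Pvalb, left out after its values were seen, the other 12 summed to 251, 306 and 436 in vehicle and 138, 146 and 127 in NTG, without overlap and at 0.415 times the vehicle mean. Their median log2 fold change was -1.43, and -1.22 after correction, with Myh4 at -2.75 and Tnnc2 at -2.97. The part of these cell types in the members' changes was not tested.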

How the data were processed

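Messenger RNA of the trigeminal ganglion was measured in 3 vehicle and 3 NTG libraries, grouped by their labels. Per the labels' protocols, RNA was isolated with TRIzol and enriched for poly(A) transcripts, and strand-specific libraries were sequenced from both ends. FastQC, HISAT2 and GRCm38 are named in the submitters' processing notes. Counting tool, strand setting and normalization tool: not given in the sources used here. The values the authors deposited are a signal, gene counts divided by a size factor: 100% were whole reads within 0.01 after division by the value of 1 read (0.867 to 1.10 normalised reads). At these depths 3 reads are 2.60 to 3.30 normalised reads, which covers counting error only.

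The main test was limma-trend (limma 3.58.1, R 4.3.3) on log2(value + 1), two-sided, with robust empirical Bayes. It covered 17475 genes, those reaching 1 normalised read in 3 or more libraries, and p-values were adjusted over all of them (Benjamini-Hochberg, threshold 0.05). The log2 scale with a pseudocount understates the change of low genes. Transcript GC content and length, medians over GENCODE vM21 transcripts, were matched for 16327 genes (93.2%) and all 64 members, and a smooth curve over both, fitted per library with mgcv 1.9.3, was subtracted for the GC-corrected values.

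Members, roles, lists, pairs and tests were chosen with earlier results of these data known. Given in full were 14 core release genes and the 12 members with the smallest p, and other vesicle cycle genes past the threshold, up to 3 per list by smallest p. The remaining members are given by their fold change. Some members and 1 of the 10 pairs count in the totals but are not reported here. Alternatives were the pseudocount, the filter, TMM scaling, DESeq2 1.42.0, edgeR 4.0.16 and limma-voom on recovered reads, the GC correction, a block for the replicate number, and the omission of each library. Each library left out together with the GC correction was chosen after seeing the data. No pair of libraries within a group was a duplicate: chi-square over degrees of freedom was 3.99 to 7.76. On simulated data for this comparison, with 17524 genes, limma called 50% of 1.5-fold and 79% of 2-fold changes. Of its calls 9.15% were unchanged genes, and with no changed gene it made 2 calls. The simulation held 100 changed genes at each fold and no GC trend, unlike these libraries. Only 2 called members reached 1.5-fold, so it does not cover the smaller changes. Sequences came from GENCODE vM21 and RefSeq tables. Python 3.11.15, pandas 2.3.3 and matplotlib 3.10.9 were used.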

Additional observations from a re-analysis of the deposited data

How the results depend on the processing

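The counts of members that rose (14) and fell (9) stayed within 1.5 times under other pseudocounts, filters, TMM scaling, DESeq2, edgeR and limma-voom, and no fold change given in full reversed there. With the GC correction 5 members rose and 1 fell, and the other vesicle cycle genes gave 16 rises and 0 falls. Over all genes 1690 of 16278 tested were called, in place of 4512 of 17475, and some were called only after the correction. Leaving out 1 library gave 6 to 15 members that rose, 5 to 11 that fell, 2946 to 4678 called genes, and 16 to 29 rises and 4 to 19 falls among the other vesicle cycle genes. The fewest rises came without NTG replicate 2 (6 rose and 5 fell). With the GC correction as well, 2 to 6 members rose (3 without NTG replicate 3) and 1 to 2 fell.

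Same-numbered libraries did not deviate together (correlations of 0.004, -0.033 and -0.025), so the numbers were not taken as pairs. With the replicate block 17 members rose and 14 fell, and 5254 genes were called. With the block and the GC correction 7 rose and 5 fell, 2198 genes were called, and 18 of the other vesicle cycle genes rose and 1 fell. Under the GC correction, with or without the block, 7 of the log2 fold changes given in full changed sign. They were those of Stx1a (0.17), Syt1 (-0.15), Syt2 (0.011), Cplx1 (0.040), Unc13a (0.046), Syt7 (0.0085) and Syt3 (0.068). Leaving out 1 library, Syt1 ranged from -0.013 (without NTG replicate 2) to 0.060, with -0.0050 without NTG replicate 1. Syt2 ranged from -0.096 to 0.012 and the Syt2/Syt1 ratio from -0.16 to 0.017, the positive value of each coming without NTG replicate 1; the cause was not tested. Depth limits Unc13d, Syt10, Stx11, Syt13, Syt15 and Syt17, at under 100 normalised reads in both groups.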

Other observations

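The GC-corrected values held further rises among genes of the vesicle cycle, here chosen after their values were seen. The clathrin adaptor subunit Ap2m1 rose by 0.26 on the log2 scale (adjusted p = 7.74e-05), the endophilin Sh3gl2 by 0.26 (adjusted p = 0.00401) and the amphiphysin Amph by 0.19 (adjusted p = 0.00667), and all 3 had also risen as deposited. Another 4 genes were called only after the correction: Chga and Chgb, the chromogranins of dense-core vesicles, by 0.17 and 0.17 (adjusted p = 0.0113 and 0.0189), Scamp5, a vesicle membrane protein, by 0.23 (adjusted p = 0.00115), and the SNARE Use1 by 0.21 (adjusted p = 0.0295). As deposited, Chga stood at -0.07, Chgb at 0.07, Scamp5 at 0.00 and Use1 at 0.05.

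The neuronal markers did not move together either. On GC-corrected values 4 of the 18 rose and 5 fell. The sodium channel Scn9a rose by 0.23 (adjusted p = 0.000994), Map2 by 0.23 (adjusted p = 0.00154), Tubb3 by 0.20 (adjusted p = 0.000213) and Prph by 0.19 (adjusted p = 0.000446). The sensory transcription factor Pou4f1 fell by 0.46 (adjusted p = 0.000298), and the RNA-binding proteins Elavl3 and Rbfox3 fell by 0.35 and 0.28 (adjusted p = 0.000114 and 0.000386). Gap43 fell by 0.29 (adjusted p = 0.00111) and Elavl4 by 0.25 (adjusted p = 0.000500).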
